A study of Sus scrofa with 12 samples.

Results

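The peak ratio of untreated IPEC-J2 cells compares, peak by peak, reads of libraries labelled input with reads of libraries labelled IP. Its members were taken by sample group and table: all 25055 distinct peaks of the deposited peak count table, each used once, in 6 of the 12 libraries of the series. These 6 are 3 libraries labelled input (named CON in the deposited codes) and 3 labelled IP (coded C). The study measured N6-methyladenosine (m6A) by MeRIP-seq in IPEC-J2, an epithelial cell line from pig small intestine of wild-type genotype. Cells had 0 µM or 25 µM of OAA for 24 h, and RNA broken into pieces of about 100 nt was divided into an antibody-bound part (IP) and an unselected part (input). The untreated (0 µM) libraries are described, and the 6 libraries of cells given 25 µM serve for comparison only. All libraries carry 1 batch label, and nothing says that the 3 numbered samples of a group were separate cultures. The p-values therefore speak for the spread among these libraries, possibly a technical one.

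m6A is placed on adenosines of nascent mRNA by a writer complex built around METTL3 and METTL14, removed by the erasers FTO and ALKBH5, and bound by readers such as the YTH domain proteins. In mammalian cells the mark is known to be dense around stop codons, in long internal exons and in the first part of 3' UTRs, and sparse in mRNAs of housekeeping genes. Many methylated mRNAs encode regulators and are short-lived, since YTHDF2 recruits the deadenylation machinery.

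Every ratio below is the log2 of reads labelled input divided by reads labelled IP, as in the authors' deposited table. The labels and the library codes disagree about which libraries hold the antibody-bound RNA. The deposited ratio has the libraries titled input, coded CON, in its numerator, and the deposited gene expression table is made of the libraries titled IP, coded C. If the titles hold, a high ratio is depletion by the antibody, and if the use made of the codes holds, a high ratio is enrichment. The sign of every ratio depends on this, so "higher" below always means more of the scaled reads in the libraries labelled input. The meaning of the FPKM depends on it too. If the titles hold, the FPKM measure antibody-bound RNA, and "expression" below stands only for these FPKM values.

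The libraries labelled input held 20.5 ± 3.48 M counts in peaks and those labelled IP 4.07 ± 0.376 M (mean ± SD, n = 3 each). Of all peaks, 145 to 175 had no read in a library labelled input and 1096 to 1232 in one labelled IP, so the shallower side limits the precision at weak peaks. Libraries of one label resembled each other more than those of the other label: across peaks log2 CPM (counts scaled to a common library size) correlated with r of 0.981 to 0.983 within the input label, 0.972 to 0.974 within the IP label and 0.813 to 0.833 between them. In the expression table all 7 epithelial markers reached 1 FPKM, with EPCAM at 202 ± 3.65 and CDH1 at 131 ± 9.14 (SD, n = 3). Of the enterocyte markers 1 of 5 did, SI at 12.9 ± 0.862 FPKM, while VIL1 was at 0.273 ± 0.168 and FABP2 was listed at 0. No goblet, enteroendocrine, stem cell or fibroblast marker did, against 3 of 3 endothelial markers at low levels (summed FPKM 5.52 to 6.73, against 1080 to 1177 for the epithelial list) and 1 of 5 leukocyte markers, CD79A, with PTPRC listed at 0.

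Most peaks differed between the labels by more than the spread between libraries. Of the 23366 peaks with enough reads to test, 16242 were called (69.5%) at an adjusted p under 0.05 by edgeR's quasi-likelihood test with Benjamini-Hochberg adjustment. They divided into 8166 higher (34.9%) and 8076 lower (34.6%). This even division follows from the TMM scaling, which sets the typical peak to 0. Scaled by library size alone, the median of all peaks shifted by -0.34 and the calls divided into 6403 higher and 10102 lower, so directions of peaks near 0 depend on the scaling. With a change of at least 2-fold required by the test itself, 4052 peaks were higher (17.3%) and 3008 lower (12.9%). The central 80% of tested peaks ran from a log2 ratio of -1.45 to 1.88, with a longer tail on the high side, where the 99th percentile was 3.61 against -2.22 at the 1st. These percentiles include 430 tested peaks with 5 or fewer summed counts on one side, 421 of them called, where the ratio has no firm size. Their part in the longer tail was not tested. A typical peak was known to a standard error of 0.20, and in 72.4% of tested peaks the 3 values of one label lay wholly above those of the other.

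Among the peaks with the highest ratios, several lay at the ends of mRNAs of signalling and growth regulators. The peak over the stop codon of TSC1, the hamartin subunit of the complex that restrains mTORC1 (chromosome 1, 272641082 to 272641731, build not given in the sources used here), had 286, 296 and 267 CPM in the libraries labelled input and 13.5, 15.1 and 22.2 CPM in those labelled IP. Every library labelled input was far above every library labelled IP, and the log2 ratio was 4.07 ± 0.11 (SE, adjusted p = 7.31e-19, edgeR). A 3' UTR peak of BCL7A, which encodes a subunit of the BAF chromatin remodeller, had 174, 169 and 169 CPM against 10.4, 8.15 and 13.2 CPM, a log2 ratio of 4.03 ± 0.12. GNAI2 encodes an inhibitory G protein alpha subunit. Its 5' UTR peak had 133, 131 and 162 CPM against 11.5, 10.1 and 8.85 CPM (log2 ratio 3.80 ± 0.13). A coding peak of NALF2, whose product is an auxiliary protein of the NALCN sodium leak channel, reached 3.94 ± 0.14. Stop codon peaks of LPAR5, a lysophosphatidic acid receptor, of GJC1, which encodes connexin 45, and of IER5L followed at 3.78 ± 0.17, 3.78 ± 0.18 and 3.70 ± 0.16. The first of the 8 by value, 4.09 ± 0.27, lay under a gene on chromosome X with the retroviral symbol env. Its libraries labelled input were uneven, at 79.2, 181 and 107 CPM, and reads of such multi-copy elements cannot be placed with certainty.

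The lowest of all such ratios was in a 125-bp peak at the stop codon of RPS24, a protein of the small ribosomal subunit (chromosome 14, 80476285 to 80476409). It had 3.44, 5.20 and 4.13 CPM in the libraries labelled input and 92.0, 90.2 and 84.9 CPM in those labelled IP, a log2 ratio of -4.40 ± 0.14 (adjusted p = 5.47e-18, edgeR). RPS24 is a symbol that several gene IDs carry here and ribosomal protein genes have near-identical copies, so the placing of its reads is uncertain. A coding peak of ATP5F1A, the alpha subunit of mitochondrial ATP synthase, had 15.7 ± 4.54 CPM against 121 ± 3.80 CPM (SD, n = 3), and its log2 ratio was -2.93 ± 0.14. The start codon peak of CNN2, an actin-binding calponin, was at -2.86 ± 0.14, and a peak of GAS2L1, which links actin and microtubules, at -2.55 ± 0.20. The 4 others were under MLF2 (-2.43), the glycan-trimming enzyme EDEM3 (-2.41), the inorganic pyrophosphatase PPA1 (-2.41) and the CTP synthase CTPS1 (-2.40). All 16 were chosen for their ratios from 10932 called mRNA peaks with at least 10 reads in each library, so their tests describe them and add no support. That the labels do not overlap was also a condition of the choice.

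**Figure D1:**
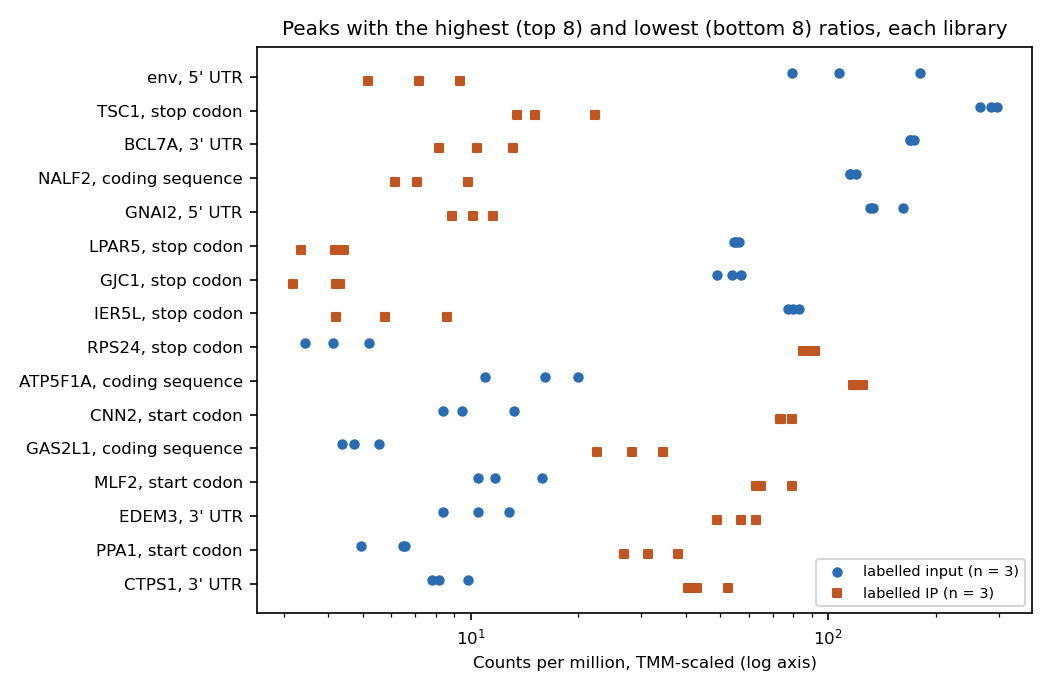
CPM (log axis) of each of the 3 libraries labelled input (circles) and 3 labelled IP (squares) in the 8 peaks with the highest and the 8 with the lowest ratio. The 16 peaks were chosen so that the labels do not overlap. The TSC1 peak spans 267 to 296 CPM on one side and 13.5 to 22.2 CPM on the other.

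The ratio depended on where in the mRNA a peak lay. Peaks that include a stop codon had the most calls on the high side among the 5 main mRNA regions: 2442 of 5114 tested were higher (47.8%) and 1601 lower (31.3%), with a median of 0.35. The medians of single pairs of libraries, one of each label, were 0.33, 0.35 and 0.36. Peaks wholly in 3' UTRs had a median of -0.26, with 990 of 3610 higher and 1464 lower. Start codon peaks were similar, at -0.19, with 1080 of 4246 higher and 1482 lower. Coding peaks sat at the centre, at -0.036, with 1794 of 5226 higher and 1891 lower. Peaks of 5' UTRs had a median of 0.36 but fewer calls, 452 higher and 236 lower of 1233, and few reads, with a median of 3.92 CPM in the libraries labelled input against 26.5 CPM at stop codons. These medians are relative to the typical peak and would shift together with the scaling, by -0.34 for library size alone, so the differences between regions carry the comparison. Among short peaks stop codon peaks did not lie above coding peaks, as given below. Over all lengths together, the median of stop codon peaks exceeded that of coding peaks by 0.38, against an SD of 0.0161 between the 3 pairs of libraries. The same showed in the reads: stop codon peaks, 20.9% of all peaks, held 38.0 ± 0.296% of the reads of libraries labelled input and 30.7 ± 0.238% of those labelled IP (SD, n = 3). Start codon peaks went the other way, with 10.8 ± 0.292% against 14.4 ± 0.351%.

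**Figure D2:**
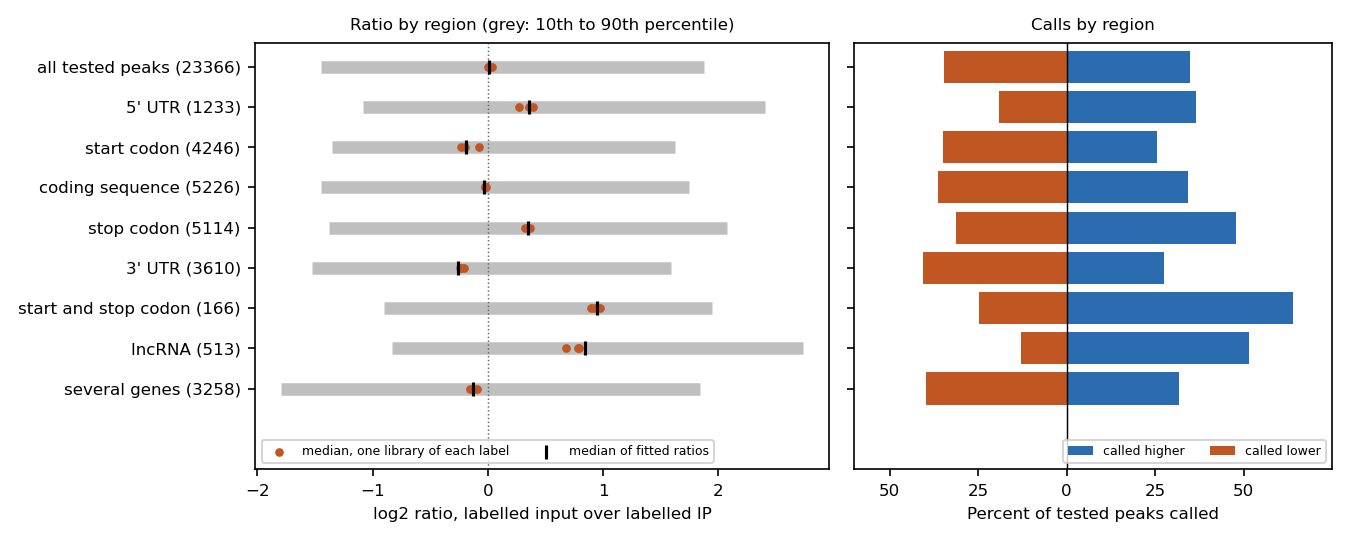
Left, median log2 ratio of tested peaks by region with the 10th to 90th percentile (grey) and the medians of 3 single pairs of libraries, the number of peaks in brackets. Right, percent of tested peaks called higher and lower. Stop codon peaks have a median of 0.35 and 3' UTR peaks of -0.26, and the medians of the pairs lie close together beside the spread over peaks.

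Stop codon peaks were not alike. Those that the deposited annotation places over coding sequence, stop codon and 3' UTR together had a median of 0.64 (1806 higher and 804 lower of 3184), whereas those over the stop codon and 3' UTR alone had a median of -0.25 (456 higher and 613 lower of 1411). Part of that gap moved with the length of the peak. Among peaks longer than 300 bp and up to 1000 bp the medians were 1.08 and 0.75, and among peaks of up to 300 bp -0.47 and -0.74. Both kinds were thus high when long and low when short, with the kind that reaches into coding sequence above the other in each length class.

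Peak length moved with the ratio. Of 2487 tested peaks of up to 100 bp, 30 were higher and 1346 lower, with a median of -0.96. The median was -0.64 up to 200 bp, 0.083 up to 300 bp and 0.74 up to 1000 bp, each counted from the class before, and in the last of these 4347 of 7033 peaks were higher and 1293 lower. Longer peaks returned to 0.018 up to 10000 bp and 0.10 beyond. Within stop codon peaks the median was -0.58 up to 300 bp (423 of 2310 higher) and 0.99 from there to 1000 bp (1644 of 2258 higher). Within 3' UTR peaks it was -0.61 and 0.68 in the same length classes. Coding peaks were at -0.48 and 0.62, and start codon peaks at -0.27 and 0.41. Stop codon peaks thus lay below coding and start codon peaks up to 300 bp, and above both from there to 1000 bp. How the authors called the peaks is not given in the sources used here, and its part in this relation was not tested. The number of peaks on a gene did not move with the ratio in the same way: class medians lay between -0.022 for genes with 1 peak and 0.10 for genes with 5 to 8.

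Peaks of one gene could have opposite ratios. Of 5312 genes with at least 2 peaks in the test per peak, 1872 had both a higher and a lower peak. In these 5312 genes the lowest and highest peak of a gene differed by a median of 1.65 log2 units, and by 3.34 at the 90th percentile. When each peak was tested against the rest of its gene (edgeR diffSpliceDGE), 8883 of 16486 peaks were called (53.9%), 3416 above their gene (20.7%) and 5467 below (33.2%). Of 5305 genes with at least 2 peaks in this test, 3783 (71.3%) had at least 1 peak called. Both a peak above and a peak below were found in 2487 genes (46.9%). The SD of the ratio in the test per peak was 1.16 among peaks of the same gene and 1.28 over all peaks of the 5312 genes. Stop codon peaks were divided evenly around their gene, with 945 above and 890 below of 3956, whereas coding peaks (771 above, 1943 below of 4755) and 3' UTR peaks (525 above, 1395 below of 3329) mostly lay below. Where a gene had both kinds, its stop codon peaks exceeded its coding peaks by a median of 0.51 (in 957 of 1527 genes, 62.7%) and its 3' UTR peaks by 0.56 (in 864 of 1326 genes, 65.2%). Peaks of all lengths up to 10000 bp entered these medians together. Against start codon peaks the median difference was 0.11 (861 of 1622 genes), and against 5' UTR peaks -0.15 (185 of 410 genes above). The pair medians for coding peaks were 0.44, 0.45 and 0.52, and for 3' UTR peaks 0.53, 0.56 and 0.53. Those against 5' UTR peaks changed sign, from -0.17 to 0.0069.

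LATS2, a kinase of the Hippo pathway, shows how sharp these differences were. One of its coding peaks (chromosome 11, 1236064 to 1237188) had 1411, 1344 and 1327 CPM in the libraries labelled input and 110, 117 and 115 CPM in those labelled IP, a log2 ratio of 3.57 ± 0.06. The next coding peak upstream, of 50 bp, had 6.15, 6.16 and 6.78 CPM against 18.2, 15.5 and 21.3 CPM, a ratio of -1.52 ± 0.20, so the order of the labels was turned within one coding sequence. The other LATS2 peaks lay between, at 1.22 for the start codon, 1.15 for the stop codon, -1.06 for the 3' UTR and 0.18 for the remaining coding peak. That last one was not called (adjusted p = 0.0632, edgeR), but was when any one library labelled input was left out (0.23 to 0.27) and with DESeq2 (0.21), and it turned to -0.16, not called, with library size scaling.

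GNAI2 had the widest range of the genes named by this rule. Its 3' UTR peak had 86.5, 78.1 and 79.8 CPM in the libraries labelled input and 287, 277 and 285 CPM in those labelled IP (log2 ratio -1.79 ± 0.07), the opposite of its 5' UTR peak above. TSC1 had 2 coding peaks at -0.81 and -0.85 beside the stop codon peak at 4.07. CDCP1, a transmembrane glycoprotein of epithelial cells, ran from 3.56 ± 0.07 at the stop codon (711, 753 and 771 CPM against 61.2, 64.6 and 63.6 CPM) to -1.18 ± 0.22 at a coding peak. In BTD, the gene of biotinidase, the extremes lay within the 3' UTR, where a peak of 425 bp had a ratio of 3.04 ± 0.09 and a peak of 100 bp -1.80 ± 0.19. BCL7A had a stop codon peak at 1.25 ± 0.14 upstream of the 3' UTR peak at 4.03. DST, which encodes the cytoskeletal linker dystonin, had 17 tested peaks between -1.38 at the stop codon and 3.39 at a coding peak, and SLC45A4 ran from 3.02 at the start codon to -1.73 in the 3' UTR. The start codon peak of SLC45A4 spans over 10000 bp, and its next highest peak was at 0.041. These 8 genes are those with the largest range among 2202 genes that met the rule.

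Several genes chosen for their place in the study or as landmarks also differed along their mRNAs. YTHDF2, the m6A reader named in the series title, had a coding peak with 527, 563 and 552 CPM against 164, 178 and 163 CPM, a log2 ratio of 1.70 ± 0.06 (adjusted p = 6.05e-17, edgeR). A second coding peak was at 0.72 ± 0.09, and the start codon peak at -0.53 ± 0.21 (adjusted p = 0.0313). The stop codon peak, at -0.29 ± 0.15, was not called (adjusted p = 0.106). The start codon call was lost without library 2 or 3 of either label (-0.38 to -0.54) and with DESeq2 (adjusted p = 0.0587). The stop codon peak was called without IP library 3 (-0.44) and with library size scaling (-0.63). MYC, a short-lived growth regulator, had 1902, 2044 and 2031 CPM at its stop codon peak against 788, 788 and 760 CPM (1.36 ± 0.05), and 73.3, 63.2 and 70.9 CPM against 159, 146 and 171 CPM at its start codon peak (-1.20 ± 0.08). The 2 MYC peaks thus differed in the order of the labels. The stress factor ATF3 had a 3' UTR peak at 1.88 ± 0.06 and a stop codon peak at -1.55 ± 0.18. In CDH1, the gene of E-cadherin, the 3 peaks of the 3' UTR were at -0.46, -1.33 and -1.64, whereas the start codon peak, with 6.73 to 8.28 CPM against 0.596 to 1.77 CPM, was at 2.68 ± 0.37. PSMD3, the proteasome subunit of the series title, was low at both of its peaks, with -1.51 ± 0.11 at the stop codon and -1.20 ± 0.08 at the start codon.

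**Figure D3:**
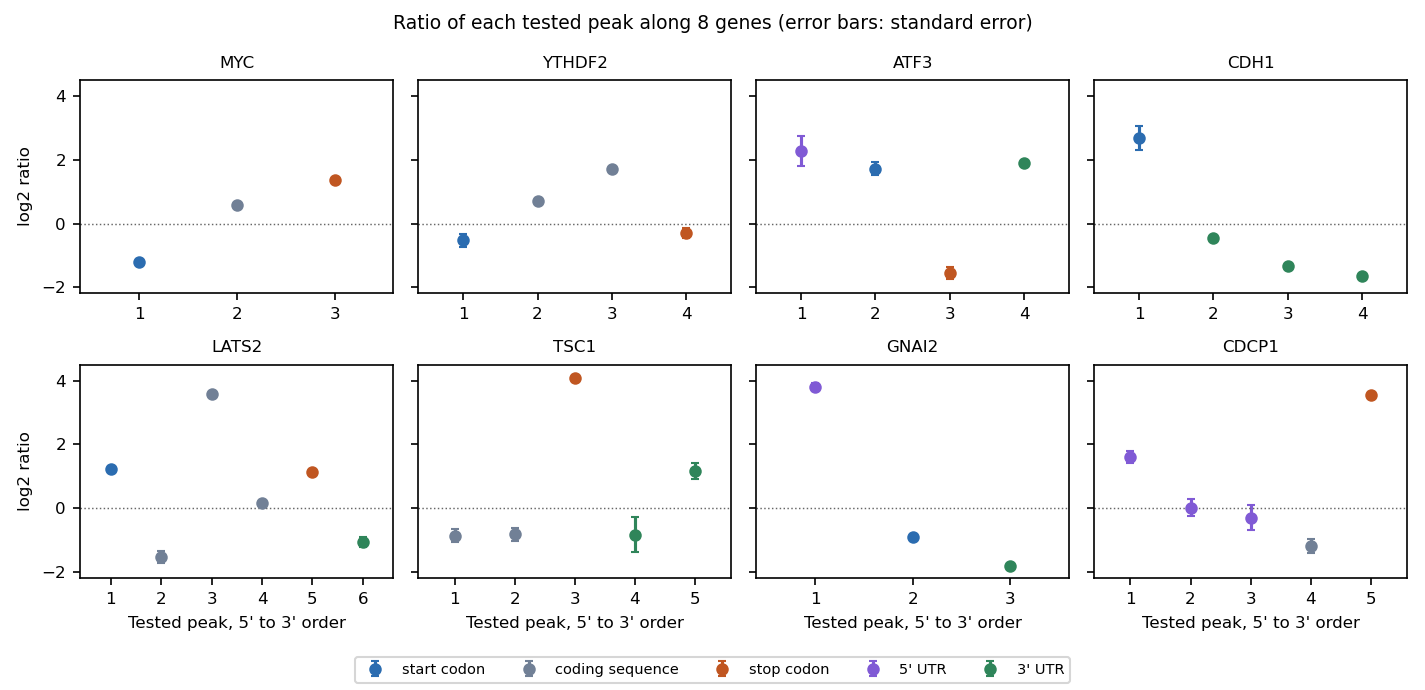
Log2 ratio of every tested peak of 8 genes, ordered from the 5' to the 3' end of the gene, with its standard error and coloured by region. MYC goes from -1.20 at the start codon to 1.36 at the stop codon, and LATS2 has coding peaks at -1.52, 3.57 and 0.18.

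Summed over the peaks of each gene, 6975 of 8936 genes tested were called (78.1%), 3515 higher (39.3%) and 3460 lower (38.7%), around a median of 0.0077. Lists of genes by function lay far from this median in both directions, and 32 of 50 lists had a median below it. The ratio also moved with the expression level of a gene, as described below, so the median FPKM is given beside several lists, and its part in their position was not tested. Library size scaling shifted the median gene by -0.12, less than the distance from 0 of any list whose direction is given here.

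Genes of transcription factors led the high side. Of 71 tested homeobox, SOX, FOX and other developmental factors, 48 were higher and 11 lower, with a median of 1.05 at a median expression of 3.13 FPKM. PAX2, a factor of kidney and nervous system development, had 1342, 1214 and 1238 CPM in the libraries labelled input and 304, 288 and 264 CPM in those labelled IP (log2 ratio 2.15 ± 0.06). HOXB6 had 1905, 1855 and 1870 CPM against 709, 707 and 718 CPM (1.40 ± 0.04), while its neighbour in the cluster, HOXB7, was at -0.88 ± 0.08. Members of one family thus went both ways. SOX9, an intestinal crypt factor, was at 1.97 ± 0.16. Krüppel-like and SP factors had a median of 1.01, with 14 of 17 higher and 2 lower. KLF4 and KLF5, which govern differentiation and proliferation of gut epithelium, were at 1.61 ± 0.06 and 1.35 ± 0.05, and KLF16 was at -0.54 ± 0.06. Genes with ZBTB or ZSCAN symbols, grouped by symbol alone, were at 0.99 (30 of 39 higher, 2 lower), with ZBTB2 at 2.41 ± 0.09. The ZNF-named genes were at 0.71 (129 of 196 higher, 23 lower, 2.85 FPKM). ZNF706 was the clearest exception, with 27.8, 19.6 and 26.5 CPM against 121, 135 and 127 CPM, a ratio of -2.36 ± 0.12.

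Immediate early and other short-lived regulators were on the high side. Of 33 genes, 24 were higher and 6 lower, with a median of 0.70. Of 32 with an expression value, 27 lay above the median of genes of like expression (the same quintile of FPKM, described below). BHLHE40, a clock-linked repressor, had 1934, 2031 and 2015 CPM against 461, 430 and 478 CPM (2.13 ± 0.05). The early response genes IER5 and EGR1 were at 1.70 ± 0.05 and 1.53 ± 0.06. The AP-1 subunit FOSL1 and the helix-loop-helix inhibitor ID1 went the other way, at -0.98 ± 0.08 and -0.61 ± 0.07. These genes took 1.46 ± 0.0304% of the reads of libraries labelled input and 0.934 ± 0.0148% of those labelled IP.

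Signalling lists lay on both sides. The Notch list had a median of 0.74 (10 of 15 higher, 2 lower). Its ligand JAG1 had 2342, 2552 and 2494 CPM against 540, 506 and 530 CPM, a ratio of 2.23 ± 0.05, and the coactivators MAML1 and MAML2 were at 1.23 ± 0.09 and 1.81 ± 0.08. RBPJ, the DNA-binding partner of the Notch receptor, was at -0.82 ± 0.22. The Wnt list had a median of 0.87 (18 of 27 higher, 4 lower), with the ubiquitin ligase ZNRF3, which removes Wnt receptors, at 2.18 ± 0.12 and the receptor FZD6 at 0.95 ± 0.05. CTNNB1, the pathway's beta-catenin, was lower in the libraries labelled input, at -1.22 ± 0.05. Of the TGF-beta and BMP list 14 of 25 were higher and 5 lower (median 0.44), among them BMP4 at 2.36 ± 0.11 and the corepressor SKI at 1.64 ± 0.05, whereas the shared mediator SMAD4 was at -0.94 ± 0.14. EGFR ligands and MAPK feedback genes had a median of 0.57 (10 higher, 5 lower of 19), led by ERRFI1, an inhibitor of EGFR, at 1.87 ± 0.07. The adhesion and orphan G protein-coupled receptors were at 0.92 (24 of 37 higher, 6 lower). Receptor tyrosine kinases were divided evenly (7 higher, 7 lower of 16, median 0.069), as were genes of the p53 pathway (5 and 5 of 13, -0.049). The NF-kB list had 8 higher and 9 lower of 19 (-0.52) and the Hippo list 6 higher and 10 lower of 18 (-0.17).

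At the low end stood the respiratory chain and the ribosome. All 8 tested mRNAs of the mitochondrial genome were lower, with a median of -1.67. COX3, a subunit of cytochrome oxidase, had 679, 538 and 528 CPM in the libraries labelled input and 2726, 2765 and 2631 CPM in those labelled IP (-2.22 ± 0.07). The cytosolic ribosomal proteins had a median of -1.63, with 61 of 70 lower and 3 higher, and took 0.872 ± 0.171% of reads in peaks in the libraries labelled input against 2.82 ± 0.123%. Input library 1 held more of them (1.07%) than libraries 2 and 3 (0.760% and 0.787%), and the medians of the single pairs were -1.12, -1.87 and -1.95. RPS3 had 815, 623 and 626 CPM against 2315, 2343 and 2437 CPM, a ratio of -1.78 ± 0.08. Nuclear-encoded subunits of oxidative phosphorylation had a median of -1.49 (54 of 62 lower, 3 higher), with UQCRQ of complex III at -1.92 ± 0.07 and NDUFS6 of complex I as an exception at 1.45 ± 0.06. Median expression in these lists was high, at 3240, 635 and 49.8 FPKM.

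Enzymes and protein quality control were low as well. Glycolysis had 12 of 13 genes lower (median -1.43). Its enzyme TPI1, the triose phosphate isomerase, had 362, 318 and 325 CPM against 1126, 1147 and 1125 CPM, at -1.76 ± 0.05. The lactate exporter SLC16A3 was the 1 higher gene, at 0.42 ± 0.06. Of 16 aminoacyl-tRNA synthetases 15 were lower (-1.40), with YARS1 higher at 0.90 ± 0.06. The 26S proteasome had 24 of 27 subunits lower (-1.38), PSMD12 at -1.96 ± 0.10 and PSMD3 at -1.56 ± 0.07 among them. Splicing factors were at -1.35 (22 of 24 lower), chaperonin and heat shock proteins at -1.32 (12 of 17), with the mitochondrial chaperone HSPD1 at -2.14 ± 0.05, and translation factors at -1.26 (21 of 28). EEF1A1 was at -1.70 ± 0.08, while EEF2 and EIF3A were higher, at 0.31 ± 0.03 and 0.43 ± 0.05. Cell cycle genes had 23 of 32 lower and 2 higher (-1.16), and those 2 were the inhibitors CDKN1B at 1.24 ± 0.06 and CDKN2C at 1.07 ± 0.04.

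**Figure D4:**
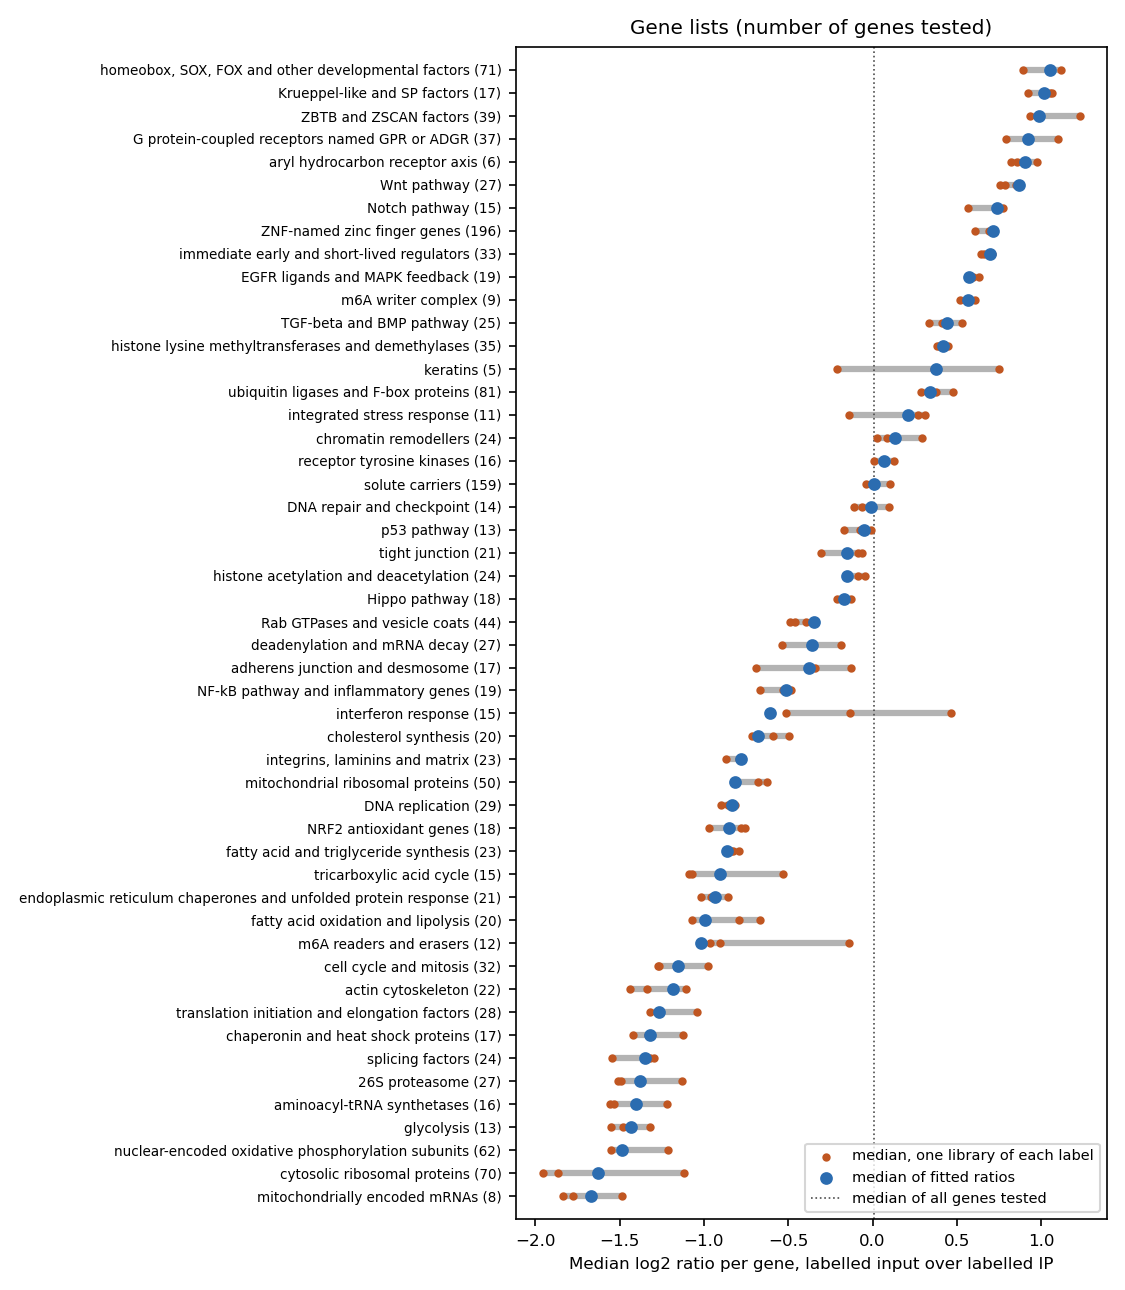
Median log2 ratio per gene of 50 gene lists (large points) with the medians of 3 single pairs of libraries (small points), the number of tested genes in brackets and the median of all genes as a dotted line. The developmental, Krüppel-like and ZBTB factor lists lie at the top, near 1. Mitochondrially encoded mRNAs and cytosolic ribosomal proteins lie at the bottom, near -1.6, and signalling lists lie on both sides of the dotted line.

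Several lists were mixed, with members at both ends. Of the m6A writer complex 5 of 9 were higher and 3 lower: the adaptors RBM15 (1.65 ± 0.06) and RBM15B (1.42 ± 0.05) and the scaffold ZC3H13 (0.98 ± 0.06) against the catalytic pair METTL3 (-1.19 ± 0.16) and METTL14 (-1.16 ± 0.11). Readers and erasers had 5 higher and 7 lower of 12. YTHDF1 had 471, 454 and 425 CPM against 170, 166 and 182 CPM (1.39 ± 0.06) and YTHDF2 was at 1.07 ± 0.06, while the RNA-binding proteins ELAVL1 and HNRNPC were at -1.91 ± 0.09 and -1.55 ± 0.08. The list of integrins, laminins and matrix leaned to the low side, with 5 higher and 17 lower of 23 (median -0.78), but also had members at both ends. ITGA3, the laminin receptor subunit of epithelia, had 5557, 5471 and 5659 CPM against 1927, 1907 and 1930 CPM (1.53 ± 0.04) and ITGA6 was at 1.32 ± 0.04, but their partner ITGB1 was at -1.95 ± 0.06 and fibronectin, FN1, at -1.73 ± 0.05.

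The junctions of the epithelium followed no single direction. Tight junction genes were 9 higher and 11 lower of 21, with CLDN4 at 0.79 ± 0.05 and the scaffold TJP1 at -1.06 ± 0.05. Adherens junction and desmosome genes were 5 higher and 9 lower of 17, where CDH1 (-1.24 ± 0.05), JUP (-1.76 ± 0.07) and CTNNB1 were low and the nectins NECTIN1 and NECTIN4 higher at 0.90 ± 0.09 and 0.48 ± 0.06. In the Hippo pathway LATS2 (1.93 ± 0.05) stood against the kinase cofactor MOB1A (-2.01 ± 0.10) and the tumour suppressor NF2 (-1.12 ± 0.06).

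Lipid genes leaned to the low side, with exceptions. Fatty acid and triglyceride synthesis was at -0.86 (5 higher, 17 lower of 23). The desaturase SCD had 261, 250 and 252 CPM against 895, 901 and 897 CPM, a ratio of -1.82 ± 0.05, while AGPAT3, an acyltransferase of phospholipid and triglyceride synthesis, was at 1.47 ± 0.06 and the regulator SREBF1 at -1.51 ± 0.08. Fatty acid oxidation and lipolysis was at -0.99 (3 higher, 11 lower of 20), with the nuclear receptor PPARA that governs it at 1.62 ± 0.13. In cholesterol synthesis (6 higher, 12 lower of 20) INSIG1, the retention factor of the SREBP pathway, was at 1.04 ± 0.06 and the enzyme IDI1 at -1.90 ± 0.09. Chaperones and stress genes of the endoplasmic reticulum had 7 higher and 13 lower of 21 (median -0.94). The lectin chaperone CANX was at -1.84 ± 0.05, and the stress sensors EIF2AK3 and ATF6 were at 2.44 ± 0.07 and 0.98 ± 0.06. The interferon list, with 7 higher and 6 lower of 15, had a median of -0.61. Its medians in single pairs of libraries were 0.46, -0.13 and -0.51, so they changed sign. Its member IFIT5 had 2449, 2743 and 2686 CPM against 626, 654 and 580 CPM (2.08 ± 0.06).

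Chromatin regulators differed by list. Histone lysine methyltransferases and demethylases had a median of 0.42 (23 of 35 higher, 7 lower). The demethylase KDM6B was at 2.23 ± 0.11 and the methyltransferases NSD3 and NSD2 at 1.67 ± 0.06 and 1.35 ± 0.05, while EZH2, the catalytic subunit of PRC2, was at -1.54 ± 0.12. Among remodellers (11 higher, 8 lower of 24) ARID1A was at 1.27 ± 0.05 and CHD4 at -1.93 ± 0.09. Histone acetylation and deacetylation had 9 higher and 10 lower of 24, with a median of -0.15. The acetyltransferases EP300 and CREBBP were at 1.14 ± 0.06 and 1.65 ± 0.09 and the deacetylase HDAC4 at 2.47 ± 0.13, while HDAC2 was at -1.99 ± 0.16. Ubiquitin ligases and F-box proteins had a median of 0.34 (41 of 81 higher, 21 lower), with TRIM41 at 2.82 ± 0.10 and FBXO2 at -2.26 ± 0.14.

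Peaks of long noncoding RNA genes were high as a class. Of 513 tested, 265 were higher (51.7%) and 66 lower (12.9%), with a median of 0.84. They held 1.40 ± 0.00195% of the reads of libraries labelled input and 0.880 ± 0.0122% of those labelled IP. The highest ratio, 4.61 ± 0.06, was in a lncRNA gene that carries the symbol TMEM80 (chromosome 2, 432971 to 433533). It had 1267, 1212 and 1186 CPM against 51.2, 47.9 and 51.4 CPM. At the other end a lncRNA with the symbol HDLBP had 36.6, 32.9 and 38.0 CPM against 165, 170 and 163 CPM (-2.21 ± 0.08). Both symbols belong to protein-coding genes, so these peaks may share reads with such genes.

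The gene ratio fell along the expression level. Genes were divided into quintiles by mean FPKM of the untreated libraries labelled IP, and the medians were 0.96, 0.34, -0.096, -0.46 and -1.03 from the lowest to the highest quintile. In the lowest 63.1% of genes were higher and 6.65% lower, and in the highest 14.9% were higher and 72.4% lower. Across 8641 genes, which are not independent replicates, log2 FPKM and the ratio had a Pearson r of -0.549 and a Spearman rho of -0.523. The FPKM libraries are those of the ratio's denominator. The FPKM of the treated cells share no library with this ratio but also come from libraries labelled IP. With them the medians were 0.97, 0.34, -0.094, -0.46 and -1.03, and r was -0.547. They set aside shared libraries but not the shared label, so the part of the denominator's own level was not tested. The length of the gene in the genome had no such course, with quintile medians between -0.14 and 0.19. Set against the median of its quintile of expression, the median gene of the immediate early list was 1.26 above, of the writer complex 1.08 above, of the Notch list 0.90 above and of the Krüppel-like list 0.69 above. The ZNF-named genes were only 0.13 above. On the low side the median ribosomal protein gene was 0.65 below its quintile, the mitochondrially encoded mRNAs 0.64 below and the splicing factors 0.56 below. The highest quintile spans 34.2 to 7088 FPKM, and the ribosomal and mitochondrially encoded lists had medians of 635 and 3240 FPKM. Such genes need not be of like expression with the rest of that quintile, and the part of this was not tested. Other lists lay nearer their quintile: endoplasmic reticulum chaperones at -0.023, fatty acid oxidation at -0.19, TGF-beta at 0.15 and ubiquitin ligases at 0.11. Some lists with a median ratio below 0 lay above their quintile: cholesterol synthesis at 0.076, NF-kB at 0.26 and tight junction at 0.60.

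**Figure D5:**
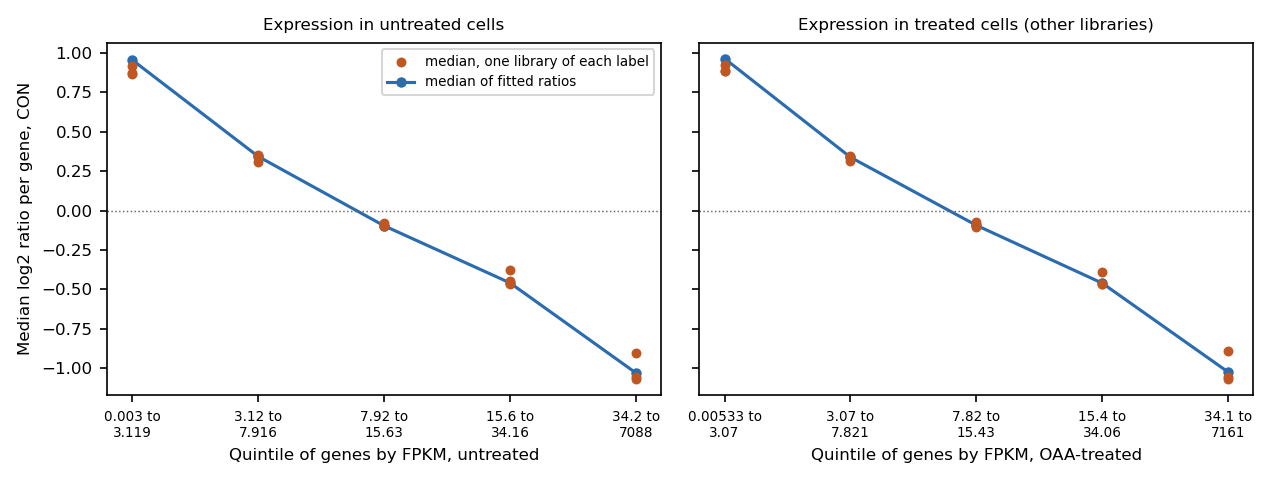
Median log2 ratio per gene (line) in quintiles of genes by FPKM, with the medians of 3 single pairs of libraries (points), for FPKM of untreated cells (left) and of OAA-treated cells, whose libraries do not enter the ratio (right). Both sets of FPKM come from libraries labelled IP. The median falls from 0.96 to -1.03 on the left and from 0.97 to -1.03 on the right.

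The ratio recurred in the 6 libraries of OAA-treated cells, where 16024 of 23565 tested peaks were called (68%), 7925 higher (33.6%) and 8099 lower (34.4%). Of the 8166 peaks higher in untreated cells, 7162 (87.7%) were also higher in treated cells, which is 90.4% of those higher there. Of the 8076 lower peaks 7289 (90.3%) recurred, 90.0% of those lower in treated cells, and no peak was called in opposite directions. The TSC1, LATS2 and RPS24 peaks described above had ratios of 3.71, 3.69 and -4.47 there. Tested as an interaction over all 12 libraries, 0 of 24145 peaks (0%) changed their ratio between 0 and 25 µM by edgeR's quasi-likelihood test (smallest adjusted p = 0.974, Benjamini-Hochberg). An unadjusted p under 0.05 was found for 1076 peaks (4.46%), limma-voom called 0 and DESeq2 1. The difference between the treatments lay between -0.75 and 0.72 for the central 90% of 23095 peaks, so nothing described here was shown to be particular to untreated cells.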

How the data were processed

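MeRIP-seq libraries of untreated and OAA-treated IPEC-J2 cells, 3 per label and treatment, were used as deposited. Per the file headers, the authors' peak table gives read counts per library in merged peaks and a log2 ratio per treatment, and the deposited gene table gives FPKM of the libraries coded C and O, titled IP. Bowtie2 and HISAT2 were used per the submitters' processing notes. For their roles and versions, the peak caller and the genome build, nothing is given in the sources used here. In 8652 peaks with at least 300 counts on each side, the deposited log2 ratio exceeded that of the counts by a near-constant 1.86 (1.69 to 1.96), which fixes its direction but not its scaling.

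The peak table repeats a peak under every gene that it overlaps (29011 entries, 25055 peaks), and each peak entered once. Gene sums and gene names use the 21450 peaks under 1 gene. Of 20778 Ensembl identifiers, 14683 took their symbol from the reference table. Starts are 1-based. Counts were compared with edgeR 4.0.16 in R 4.3.3 (quasi-likelihood F test, TMM, default low-count filter, Benjamini-Hochberg adjusted p under 0.05), which left 1689 peaks untested. Differences within genes used diffSpliceDGE. CPM values are TMM-scaled. Region classes and lists were not tested: a list is described by its counts and median. Pairs of libraries were formed by number only to show spread.

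Named are the 8 highest and 8 lowest called peaks with at least 10 counts in all 6 libraries, 1 per gene, spanning at most 10000 bp and without overlap of the labels, the 4 highest and 4 lowest lncRNA peaks, the 8 genes with the widest range, up to 4 members of each list with the smallest p and up to 2 that go against their list, and 12 landmark genes. The text prints a part of these. The members, lists and rules were chosen with earlier results of these data known, and families of the deposited transcription factor column were added after the files were seen. Alternatives were another scaling, DESeq2 1.42.0, limma-voom (limma 3.58.1), no low-count filter, a replicate block, no peaks over 10000 bp, a 2-fold minimum and leaving out each library.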

Additional observations from a re-analysis of the deposited data

How the results depend on the processing

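Per peak, 7488 higher and 7892 lower calls were shared with limma-voom and 8001 and 7712 with DESeq2, with 0 in opposite directions. Opposite calls were 19 peaks with library size alone, 45 genes and 15 within-gene differences without peaks over 10000 bp, and 1 within-gene difference with limma-voom. Requiring a 2-fold change left 7060 peaks and 2739 genes in untreated cells and 6974 peaks in treated cells. Leaving out each library in turn gave 14954 to 15810 peaks, 6633 to 6806 genes and 7971 to 8319 within-gene calls in untreated cells, 14606 to 16046 peaks in treated cells, and 32 to 34 lists below the median. For the change of the ratio it gave 0 to 1 peak, as did DESeq2 (1). Over all lengths together, stop codon peaks exceeded coding peaks by 0.36 to 0.45 without one library and by 0.36 without the low-count filter. The replicate numbers did not pair the samples: deviations of same-numbered libraries correlated at -0.0204, 0.019 and 0.0122. With the number as a block, 16065 peaks, 6961 genes, 8827 within-gene differences and 16064 peaks in treated cells were called, and 1 peak changed its ratio.

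Of the called values of single genes and peaks, 9 turned in sign, beside uncalled values near 0 such as the LATS2 peak in the report. Scaled by library size alone, the EPCAM peak was at -0.045 (main value 0.30). Without peaks over 10000 bp the gene ratios of ZBTB7B, OGDH and TIPARP were -1.58, -2.04 and -0.36 (main values 2.24, 0.18 and 0.83), and peaks of SLC45A4 lay 0.51 and 0.023 above their gene. By limma-voom, peaks of GNAI2, BTD and SLC45A4 lay 0.33, 0.27 and 0.33 above their gene. For these the cause was not tested. Counts cover sampling error only: 430 tested peaks had 5 or fewer counts on one side, where the ratio has no firm size. Library size shifted gene ratios by -0.12.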

Other observations

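Transcription factor families, taken from the deposited annotation wherever at least 10 genes were tested, added detail to the high side. Of the genes that the authors annotate as ZBTB family, 32 of 37 were higher and none lower (median 1.05). That annotation leaves out ZBTB33, at -0.68 ± 0.15, and ZBTB7B, at 2.24 ± 0.06, turned to -1.58 without peaks over 10000 bp. Of the C2H2 zinc finger genes 195 of 282 were higher and 29 lower (0.83). Forkhead genes were at 0.96 (14 of 21 higher, 3 lower) and homeobox genes, listed as TF_Otx, at 0.87 (48 of 77 higher, 15 lower). Genes of basic helix-loop-helix factors were at 0.43 (23 higher, 13 lower of 46) and of ETS factors at 0.42 (11 higher, 3 lower of 18). The HMG and MYB families did not share this position, at -0.33 (11 higher, 13 lower of 28) and 0.059 (11 higher, 11 lower of 27). Median expression was 2.95 FPKM for ZBTB and 13.3 FPKM for HMG genes, and its part in the difference was not tested.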
